A study of Homo sapiens with 14 samples.

Results

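The 4 genes described here, NFKBIA, TNFAIP3, CXCL8 and CCL20, are classical targets of the transcription factor NF-kappaB, and the data are the KMT2D peaks around them. Peaks were taken by position alone: a peak belonged to a gene when its summit, the base of highest ChIP signal, lay within 50 kb of the gene's bounds. This gave 19 of the 13808 peaks in the list, of which 6 lay at NFKBIA, 7 at TNFAIP3, 5 at CXCL8 and 1 at CCL20. All came from 1 ChIP-seq library, an antibody to KMT2D in the human head and neck squamous cell carcinoma line SCC23 with wild type genotype under the low glucose condition, which the series text gives as glucose withdrawal for 6 hours. The labels describe 14 libraries, the others being an input and histone antibodies in wild type and KMT2D knockout cells, and these were not analysed here. The study used the KMT2D library to locate where the protein binds once glucose is withdrawn. With 1 library there was no replicate error and no comparison of genotypes or glucose levels, and cell identity could not be checked, as a peak list carries no transcript levels.

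NF-kappaB is held in the cytoplasm by inhibitor proteins until a cytokine or stress signal destroys them, after which it enters the nucleus and binds kappaB motifs. NFKBIA encodes the inhibitor IkappaB-alpha and TNFAIP3 encodes the ubiquitin-editing enzyme A20. Both are induced by NF-kappaB and switch it off again, which makes them feedback genes. CXCL8 encodes the neutrophil chemokine interleukin-8 and CCL20 a chemokine for CCR6-bearing lymphocytes and dendritic cells, and both are secreted by epithelial cells in inflammation. KMT2D (MLL4) is a histone methyltransferase that places H3K4me1, mainly at enhancers.

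The proximal promoters of the 4 genes are shown because the loci differed in whether a peak lay at the gene's start and how strong it was. Each is the 250 bases before the start in RefSeq (GRCh38.p14), read 5′ to 3′ along the gene, with motif matches in capitals. They cover chr14:35404750-35404999 (minus strand) for NFKBIA, chr6:137867009-137867258 (plus) for TNFAIP3, chr4:73740319-73740568 (plus) for CXCL8 and chr2:227813592-227813841 (plus) for CCL20.
NFKBIA: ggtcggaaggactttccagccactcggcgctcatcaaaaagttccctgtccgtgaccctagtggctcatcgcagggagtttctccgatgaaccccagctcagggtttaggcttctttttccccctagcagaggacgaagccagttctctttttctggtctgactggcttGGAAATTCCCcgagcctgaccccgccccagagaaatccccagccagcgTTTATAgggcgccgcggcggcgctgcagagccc
TNFAIP3: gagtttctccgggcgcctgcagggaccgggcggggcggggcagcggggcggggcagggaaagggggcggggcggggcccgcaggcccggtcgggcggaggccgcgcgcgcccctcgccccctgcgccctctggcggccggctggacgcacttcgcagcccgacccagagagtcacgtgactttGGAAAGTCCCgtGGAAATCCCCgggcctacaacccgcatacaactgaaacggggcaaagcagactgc
CXCL8: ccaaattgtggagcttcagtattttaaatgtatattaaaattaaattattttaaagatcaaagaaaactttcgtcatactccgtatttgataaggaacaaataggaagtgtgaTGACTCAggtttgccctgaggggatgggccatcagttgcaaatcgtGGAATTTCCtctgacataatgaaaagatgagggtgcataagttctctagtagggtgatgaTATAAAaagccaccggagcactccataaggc
CCL20: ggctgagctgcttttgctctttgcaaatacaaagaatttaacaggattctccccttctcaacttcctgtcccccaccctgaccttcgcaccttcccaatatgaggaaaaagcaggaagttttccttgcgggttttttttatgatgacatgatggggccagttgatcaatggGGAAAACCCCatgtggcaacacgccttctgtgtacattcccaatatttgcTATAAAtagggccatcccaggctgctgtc

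Both strands were searched for the kappaB motif in its 10-base consensus form, for the AP-1 heptamers TGAGTCA and TGACTCA, and for the TATA box TATAAA. The 9-base form GGAANTTCC was added after the sequences had been seen. NFKBIA held GGAAATTCCC, a kappaB match that begins 81 bases before the start and contains the 9-base form. TNFAIP3 held a pair of kappaB matches, GGAAAGTCCC from 67 and GGAAATCCCC from 55 bases before the start, and CCL20 held GGAAAACCCC from 79 bases before it. CXCL8 had no match to the consensus in this window. It held the 9-base form as GGAATTTCC from 91 bases before the start, and it alone of the 4 held an AP-1 heptamer, TGACTCA, from 137 bases before it. TATAAA occurred in CXCL8 and CCL20, and on the other strand in NFKBIA. All matches to the kappaB consensus also lay on the other strand, and their letters are given as they read along the gene. Of 35116 promoters of the same length, 9.96% held the kappaB consensus, 0.826% the 9-base form, 4.2% an AP-1 heptamer and 10.7% TATAAA. A match is a description of the letters and does not show that a factor binds. The peaks carry GRCh37 coordinates, so no peak was placed on these sequences.

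For each peak, fold enrichment is the ratio of the ChIP signal at the summit to the local background from a control library, and the q-value is the p-value after adjustment over the genome. The number of ChIP fragments over the summit was rebuilt from these columns, and the intervals given for it are exact Poisson intervals at the 95% level that cover counting error only. Gene bounds were known to 1 kb, so a distance can be off by about that much. Whether a summit inside a gene lay in an exon or an intron was not analysed here.

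**Figure D1:**
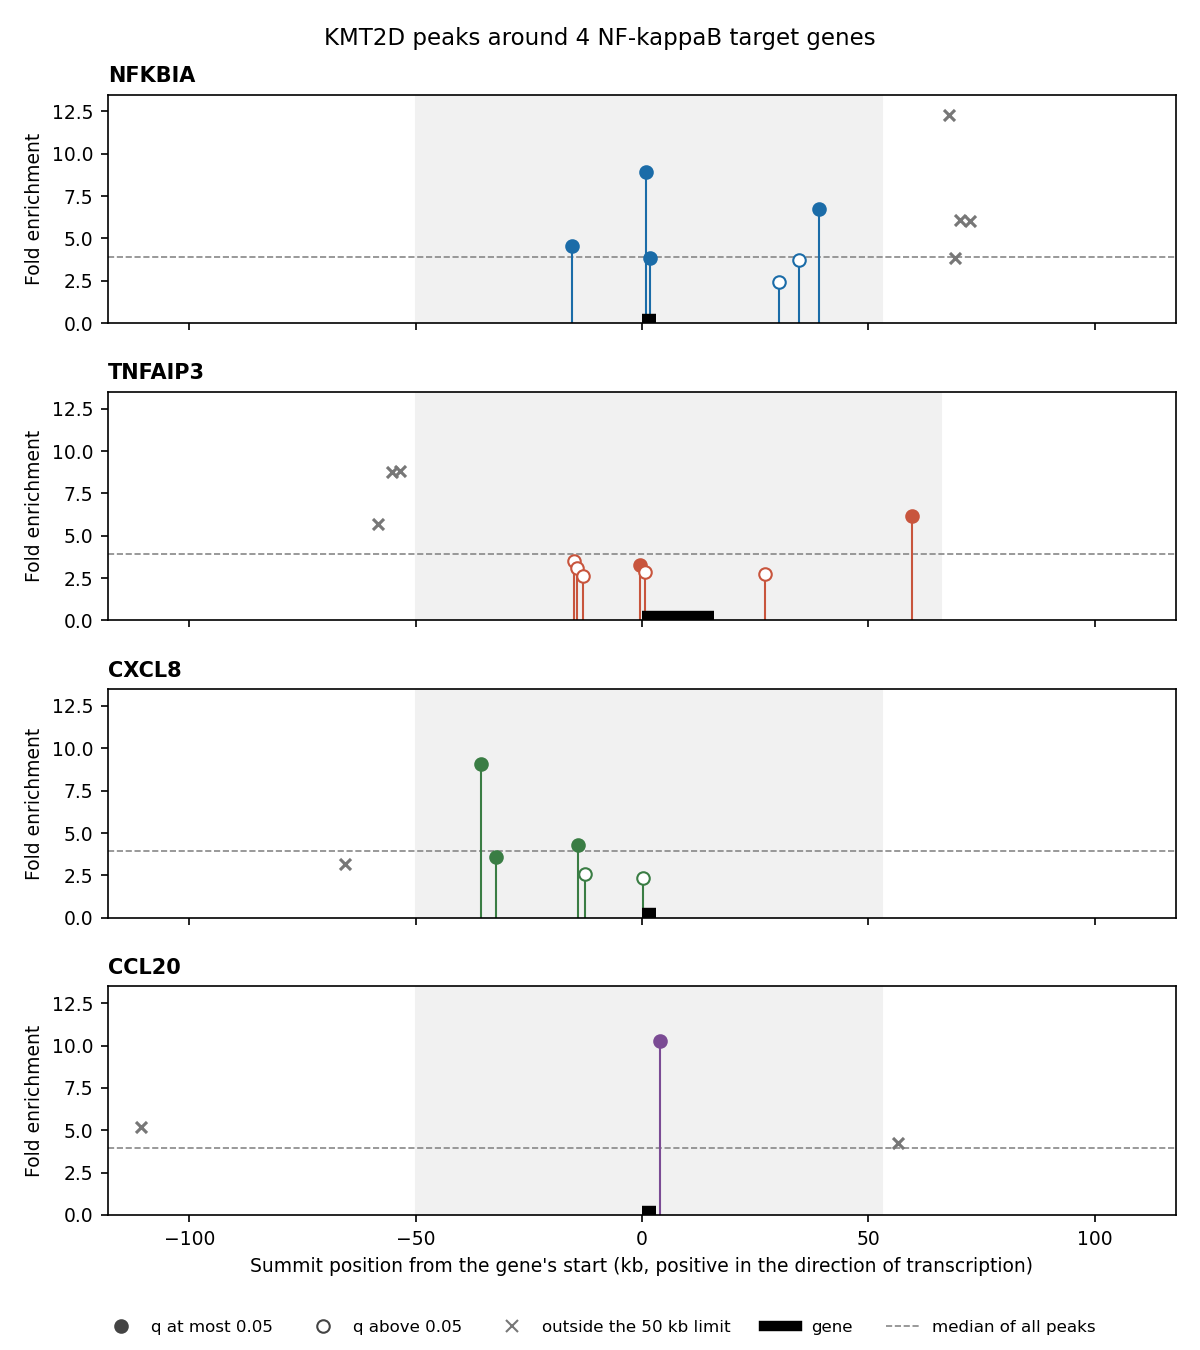
Each panel is a gene, with the distance of peak summits from the gene's start on the horizontal axis (kb, positive in the direction of transcription) and fold enrichment on the vertical axis. The grey band is the gene with 50 kb on either side, filled circles are peaks with a q-value of at most 0.05, open circles are those above it, crosses are peaks outside the band, and the dashed line is the median of all peaks (3.93). CXCL8 has its 5 peaks at or before the start, CCL20 has a single peak just past the gene, and the highest circle at TNFAIP3 is the farthest downstream.

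NFKBIA was the gene with the strongest peak at its start. This peak covered positions 35872684 to 35873483 of chromosome 14 (GRCh37, 800 bp), inside the gene, with its summit 0.88 kb after the start. Its nearer edge lay 0.52 kb after the start, so at the 1 kb precision whether it covers the start is not known. Fold enrichment was 8.93, higher than in 93.6% of all peaks, with 54 fragments (95% interval 40.6 to 70.5) where the local background gave 3.71. The q-value was 1.5e-13. A second summit inside the gene, 1.7 kb from the start, was much weaker, with a fold enrichment of 3.84, 26 fragments (17.0 to 38.1) and a q-value of 0.040. Only 246 bp separated the edges of these peaks.

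Upstream of NFKBIA there was 1 peak, 15.4 kb before the start at positions 35888900 to 35889573. Its fold enrichment was 4.54 with 29 fragments (19.4 to 41.6) and a q-value of 0.00063. The next summit of the list beyond it on this side lay 3750 kb away. The other 3 peaks lay past the 3′ end of the gene and together formed a cluster, which here means at least 3 peaks with gaps of up to 10 kb. The outermost of them, 39.1 kb from the start at positions 35834775 to 35835088, was the strongest, with a fold enrichment of 6.77, 37 fragments (26.1 to 51.0) and a q-value of 4.4e-08. The middle peak had 18 fragments (10.7 to 28.4), a fold enrichment of 3.74 and a q-value of 0.22. The innermost had 23 fragments (14.6 to 34.5) over a background of 7.88, a fold enrichment of 2.44 and a q-value of 1. Neither passed the threshold of 0.05.

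TNFAIP3 had a lower median fold enrichment than any of the other 3 genes, 3.10, and the list as a whole had 3.93. In fragments it was not the lowest, with a median of 30 against 27.5 at NFKBIA, 31 at CXCL8 and 54 at the single CCL20 peak. TNFAIP3 also had the most peaks, 7 against 6 at NFKBIA, but in a longer window (116 against 103 kb). With peaks within 1000 bp merged, TNFAIP3 had 4, while NFKBIA and CXCL8 had 5 each. The TNFAIP3 peak at the start covered positions 138187348 to 138188221 of chromosome 6 (874 bp), with the summit 0.55 kb before the start. It ended 0.22 kb past the start, so at the 1 kb precision whether it covers the start is not known. With 32 fragments (21.9 to 45.2) it reached a fold enrichment of 3.29 and a q-value of 0.033. A weaker peak inside the gene, 0.77 kb after the start, had 13 fragments (6.92 to 22.2), a fold enrichment of 2.84 and a q-value of 1.

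A further 3 TNFAIP3 peaks formed a cluster between 13.1 and 15.0 kb upstream. Their summits were 0.694 and 1.21 kb apart and their fold enrichments were 3.52, 3.10 and 2.64 in order towards the gene. They rested on 18, 30 and 32 fragments. Their q-values lay between 0.11 and 0.34, so that none passed 0.05. Downstream, a peak 11.1 kb past the gene had 19 fragments (11.4 to 29.7), a fold enrichment of 2.74 and a q-value of 1. The peak of highest fold enrichment was the most distant one, 43.6 kb past the gene at positions 138247444 to 138247721, with 6.17 and a q-value of 1.7e-06.

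The TNFAIP3 peaks show how much the fold enrichment owed to the local background. The start peak, the innermost peak of the upstream cluster and the most distant downstream peak each had 32 fragments over the summit. Their fold enrichments were 3.29, 2.64 and 6.17, with a local background of 2.74, 3.65 and 1.04 times the genome-wide level. At the first of them the background equalled exactly 3 control fragments and at the second exactly 4. With 1 control fragment fewer at the start the fold enrichment would be 4.39, and with 1 more 2.64. A count of 3 has an exact Poisson interval of 0.619 to 8.77, so the order of the start peak and the upstream peaks by fold enrichment was not resolved at this depth. Of the 19 peaks, 8 (42.1%, 95% Wilson interval 23.1 to 63.7%) had such a whole-number background, 4 of them at TNFAIP3 and 3 at CXCL8. In the list 26.5% had one, a share inside that interval.

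Within its window, CXCL8 had its strongest peak far from the gene and a weak one at the start. NFKBIA had its strongest at the start, but it too had a strong distant peak, with a fold enrichment of 6.77. The strongest CXCL8 peak covered positions 74570175 to 74571096 of chromosome 4 (922 bp, the widest of the 19), 35.5 kb upstream. It had 52 fragments (38.8 to 68.2), a fold enrichment of 9.10 that exceeded 94.1% of all peaks, and a q-value of 3.4e-13. A narrow neighbour 32.2 kb upstream had 35 fragments (24.4 to 48.7), a fold enrichment of 3.58 and a q-value of 0.0078. A second pair followed at 14.1 and 12.5 kb upstream, with fold enrichments of 4.27 (q-value 0.0036) and 2.58 (q-value 1) and with 31 and 12 fragments.

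The peak at the CXCL8 start, positions 74606127 to 74606316, was both the narrowest (190 bp) and the lowest in fold enrichment (2.36) of the 19. It rested on 16 fragments (9.15 to 26.0) over a background of 5.26 and had a q-value of 1, so it did not pass the adjustment over the genome. Of all peaks in the list, 4.70% had a lower fold enrichment. No CXCL8 peak lay downstream of the start peak, and the next summit in that direction was 369 kb away. In the RefSeq gene order the next protein-coding gene on that side is CXCL6, another neutrophil chemokine gene.

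CCL20 had a single peak, and it had the highest fold enrichment of the 19. It covered positions 228682754 to 228683267 of chromosome 2 (514 bp), with its summit 1.07 kb past the 3′ bound and 4.07 kb from the start. There were 54 fragments (40.6 to 70.5) over a background of 2.88, the genome-wide level. Fold enrichment was 10.3, which ranked 505 in the list and exceeded 96.3% of it, and the q-value was 1.4e-15. No summit lay within 2 kb of the start of CCL20, unlike at the other genes. The peak also stood alone, the nearest summits being 115 kb before it and 52.5 kb after it. Among peaks of chromosomes 1 to 22 and X, 22.2% had no other summit within 50 kb, so a solitary peak was common in the list.

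**Figure D2:**
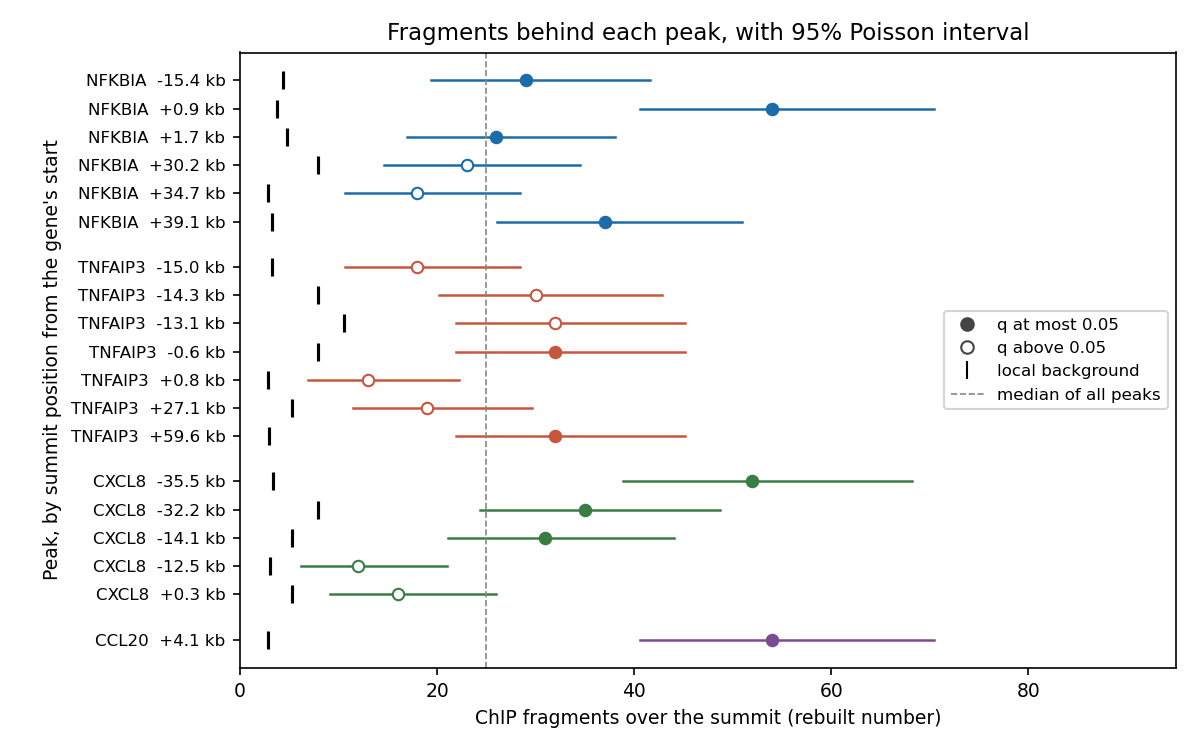
The horizontal axis is the rebuilt number of ChIP fragments over the summit, and each line is a peak, named by its gene and the distance from the gene's start. Circles are the numbers (filled for a q-value of at most 0.05), bars are 95% Poisson intervals, black ticks are the fragments that the local background gives, and the dashed line is the median of all peaks (25). The NFKBIA start peak, the distant CXCL8 peak and the CCL20 peak sit between 52 and 54 fragments, while the CXCL8 start peak has 16.

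A start peak here is the one whose summit lay nearest the start, whether or not it covers the start itself. The start peaks of NFKBIA, TNFAIP3 and CXCL8 were set side by side by their fragments. NFKBIA had 1.69 times as many as TNFAIP3 (exact 95% interval 1.07 to 2.70) and 3.38 times as many as CXCL8 (1.90 to 6.32). TNFAIP3 had 2.00 times as many as CXCL8 (1.07 to 3.90). These ratios make no allowance for the local backgrounds of 3.71, 7.88 and 5.26 fragments. In fold enrichment, which does, the order was the same, but NFKBIA stood 2.71 times above TNFAIP3 and 3.78 times above CXCL8, and TNFAIP3 only 1.39 times above CXCL8. The backgrounds of TNFAIP3 and CXCL8 rest on 3 and 2 control fragments, so the size of all 3 fold ratios is uncertain. With 1 control fragment fewer or more, the fold enrichment at the start would be 4.39 or 2.64 for TNFAIP3. For CXCL8 it would be 3.38 or 1.77, and NFKBIA had 8.93. The ratio of TNFAIP3 to CXCL8 is not resolved at this depth. The 3 intervals of the fragment ratios stayed above 1, but they cover counting error in 1 library, without adjustment for the number of pairs. CCL20, with no peak at its start, had no value to enter.

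The strongest peak in each gene's window gave another order. NFKBIA with 54 fragments, CCL20 with 54 and CXCL8 with 52 could not be told apart. The ratio of CCL20 to NFKBIA was 1.00 (0.673 to 1.49) and that of CCL20 to CXCL8 was 1.04 (0.696 to 1.55). TNFAIP3 was lower within the 50 kb limit: NFKBIA had 1.69 times its 32 fragments (1.07 to 2.70) and CXCL8 1.63 times (1.03 to 2.61). This order depends on the limit. A TNFAIP3 peak 53.4 kb upstream had 67 fragments, and an NFKBIA peak 64.9 kb past the gene had 68. The peaks compared were picked for their fold enrichment, so the ratios are a description.

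With the bounds as given, 9 of the 19 summits lay upstream of a gene, 4 inside it and 6 past its end, with median fold enrichments of 3.52, 3.34 and 4.95. The 5 summits within 2 kb of a start had a median of 3.29 and the other 14 a median of 3.66, and the ranges of both sets overlapped almost entirely (2.36 to 8.93 and 2.44 to 10.3).

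Against the list as a whole, the peaks were close to the usual strength. Of the 19, 10 passed the q-value threshold of 0.05 (52.6%, 95% Wilson interval 31.7 to 72.7%). In the list 58.5% passed, a share inside that interval. All Wilson intervals given here take the peaks as independent, which neighbouring peaks are not. The threshold was passed by 4 of 6 peaks at NFKBIA, 2 of 7 at TNFAIP3, 3 of 5 at CXCL8 and the single peak at CCL20. Median fold enrichment was 3.58 against 3.93, with 7 of the 19 above the list's median and 12 below it. The median number of fragments was higher, 30 against 25. The median width was 325 bp against 341 bp. None of the 19 was wider than 1000 bp (95% Wilson interval 0 to 16.8%). In the list 5.48% was, a share inside that interval. In a cluster lay 6 of the 19 (31.6%), close to the 30% of peaks of chromosomes 1 to 22 and X. The local background was at least 2 times the genome-wide level at 5 of the 19 (26.3%, 11.8 to 48.8%), against 18.6% of the list, and 3 of these 5 were TNFAIP3 peaks. What raised it there was not tested.

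**Figure D3:**
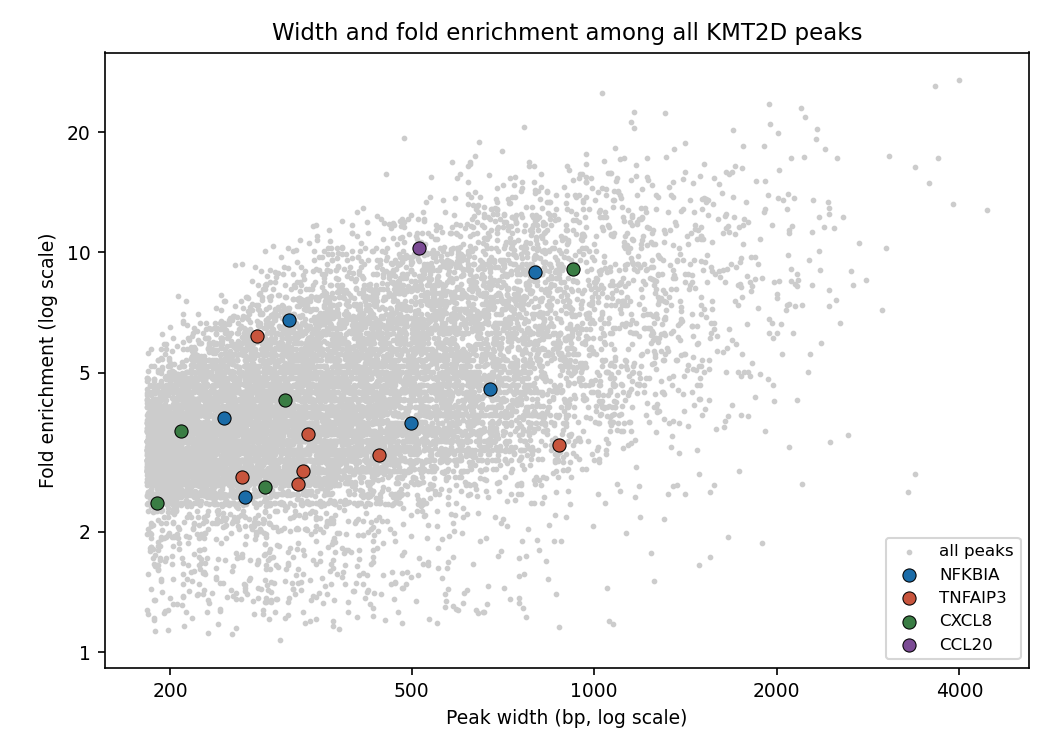
Peak width (bp) is on the horizontal axis and fold enrichment on the vertical axis, both on log scales, with every peak of the list as a grey point and the 19 peaks coloured by gene. The 19 peaks lie between 190 and 922 bp and between 2.36 and 10.3. In fold enrichment the lowest of them exceeds 4.70% of the list and the highest 96.3%.

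Peaks were dense around these genes. The 4 windows span 425 kb and held 44.7 peaks per Mb (exact Poisson interval 26.9 to 69.8), or 9.96 times the 4.49 per Mb of chromosomes 1 to 22 and X (6.00 to 15.6). The density of the list was taken over each chromosome from its first to its last peak. Windows around other genes were not measured, so whether the density is particular to these genes was not tested. The genes were chosen with earlier results of these data known, and neighbouring peaks are not independent, so the ratio is a description. It was 13.0 at NFKBIA (4.76 to 28.3), 13.4 at TNFAIP3 (5.41 to 27.7) and 10.8 at CXCL8 (3.51 to 25.2). At CCL20, with 1 peak, it was 2.16 (0.0548 to 12.1), an interval that includes 1 and overlaps those of the other genes.

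At the 50 kb limit, the outermost peaks inside were the distant TNFAIP3 peak given above, at 43.6 kb from the gene, and the NFKBIA peak at 36.1 kb. Just outside it lay a TNFAIP3 peak at 53.4 kb upstream with a fold enrichment of 8.83 and 67 fragments, a CCL20 peak at 53.6 kb with 4.27 and 31 fragments, and another upstream TNFAIP3 peak at 55.3 kb with 8.73 and 46 fragments. Both of these TNFAIP3 peaks were stronger than any inside its window. Past the 3′ side of NFKBIA, 64.9 kb from the gene, lay a peak with a fold enrichment of 12.3 and 68 fragments, higher than the start peak. The gene that such distant peaks act on was not tested.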

How the data were processed

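Per the labels and the study's methods, reads were mapped to hg19 (GRCh37) with Bowtie2, uniquely mapped reads were kept and peaks were called with MACS2 under a p-value threshold (the highest p-value in the list is 0.00984). No pooling is stated, and the control is not named. The deposited fold enrichment is the ratio of scaled ChIP pileup to local background, each with a pseudocount. The deposited significance columns are the −log10 of the p-value and of the q-value, and the deposited score, not used here, repeats the p-value. The authors' values were used only to describe and rank peaks.

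Fragments and local background were rebuilt from fold enrichment and p-value, as MACS2 derives both from a whole number of fragments. The ChIP pileup was scaled by 0.381, the genome-wide background was 1.10 on that scale (2.88 ChIP fragments), and the rebuilt values met the tolerance of 0.02 on −log10 p at all 13808 peaks. The median summit had 25 fragments (interquartile range 18 to 39). On 3 simulated lists, the smallest of 9029 peaks, at least 99.99% of the fragment numbers came back exactly. Background values within 0.01 of a whole number were read as control fragments.

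The 4 genes and the motifs were chosen with earlier results of these data known. Gene bounds were those of the selection rule, to 1 kb; their lengths (3, 16, 3 and 3 kb) lay within 1 kb of the RefSeq lengths. Strand, promoters and gene order came from RefSeq by symbol, and all 4 genes matched. Per gene, the peak of highest fold enrichment, the one nearest the start and the widest were to be given in full, all of them where a gene had at most 10. A list of further NF-kappaB genes was planned but needs a GRCh37 annotation and was not run. Clusters were stitched over gaps of up to 10000 bp. Alternatives were other q-values, windows, overlap, merging, background and cluster definitions. Computation used pandas 2.3.3, scipy 1.17.1 and numpy 2.4.6 under Python 3.11.15, with figures from matplotlib 3.10.9.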

Additional observations from a re-analysis of the deposited data

How the results depend on the processing

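The results were recomputed under 54 alternatives: 39 values kept to the interval of the value reported, or for counts to within 1.5 times it, and 15 moved. With a q-value of at most 0.05, the 19 peaks became 10, with 2 at TNFAIP3 and 3 at CXCL8. At 0.01 they became 8, with 3 at NFKBIA, 1 at TNFAIP3 and 3 at CXCL8 (42.1% of the 19, against 47.7% of the list), and the median fold enrichment rose from 3.58 to 6.47, by construction. A window of 25 kb left 3 peaks at NFKBIA and 3 at CXCL8, and a window of 100 kb gave 10 at NFKBIA and 2 at CCL20. TNFAIP3 fell from 7 peaks to 4 when peaks within 1000 bp were merged, and to 4 without peaks whose local background was at least 2 times the genome-wide level. Clusters of at least 5 peaks held 0% of the 19. The share of the list in such clusters is not given here, so the 0% is not read as a trait of these loci. The density ratio lay between 7.56 and 12.9 under the 7 alternatives, against 9.96. No paired analysis was possible because 1 library was analysed. With 1 library, which of the weaker peaks, such as that at the CXCL8 start, would recur is not known.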
